A study of Homo sapiens with 24 samples.

Results

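The 40 genes described here are tumour suppressors and marker genes known for promoter hypermethylation in colorectal cancer. They were chosen by symbol from a written list, and all 40 were found among the 58735 genes of the count tables. RNA of HCT116, a human colorectal carcinoma cell line, was sequenced in 8 groups of 3 libraries. The groups were WT, UHRF1-AID, DNMT1-AID and the compound line UHRF1-AID/DNMT1-AID, each at day 0, without auxin, and at day 4 of auxin. In the tagged lines an auxin-inducible degron, a tag that lets auxin trigger breakdown of the protein, was joined to UHRF1, DNMT1 or both proteins. All lines, WT among them, carry a doxycycline-inducible OsTIR1, the plant adaptor that the degron needs. For day 4, doxycycline at 2 µg/mL with the OsTIR1 inhibitor auxinole at 20 µM preceded a change to doxycycline with 500 µM auxin, so WT cells at day 4 received the same agents. The study describes its RNA-seq libraries as biological replicates and made each tagged line as 3 clones, and the labels do not tie a library to a clone.

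Cytosine methylation at CpG sites in a promoter goes with silence of the gene, and it has to be copied to the new strand each time DNA is replicated. DNMT1 is the enzyme that copies it, and UHRF1 binds the half-methylated site and brings DNMT1 there. In colorectal tumours many CpG-rich promoters gain methylation, and several of the genes below are used as blood or stool markers for that reason. Expression, not methylation, was measured here.

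The promoters of these genes were rich in CpG. RefSeq promoter windows of 300 bases on GRCh38.p14, from 250 before to 50 after the start, were matched for 28 of the 40 genes. They held a median of 28.5 CpG, against 14 over 27305 promoters in the same table. Of the 28 windows, 22 (78.57%) had a GC content over 50% and an observed-to-expected CpG ratio over 0.6, against 46.78% of all promoters. The 4 stretches of 100 bases that follow stand for 4 kinds of gene in these data. SOCS1 was expressed in WT and was called higher in every depleted line, FBN2 was nearly silent in WT and was called higher in the compound line, NEUROG1 had a CpG-rich promoter and 1 count in all libraries together, and SST had few CpG and no count. Each is written 5′ to 3′ on the strand of its gene, with every CpG in capitals. All lie outside the exons of the count tables, and that of FBN2 lies within the span that the tables give the gene, upstream of its RefSeq start.
SOCS1 (chr16:11256205-11256304, minus strand, 12 CpG): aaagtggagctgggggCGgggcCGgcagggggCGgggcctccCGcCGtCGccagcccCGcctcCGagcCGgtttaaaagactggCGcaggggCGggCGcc
FBN2 (chr5:128538246-128538345, minus strand, 17 CpG): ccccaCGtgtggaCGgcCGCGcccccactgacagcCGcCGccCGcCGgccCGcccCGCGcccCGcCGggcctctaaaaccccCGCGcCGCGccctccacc
NEUROG1 (chr5:135535965-135536064, minus strand, 9 CpG): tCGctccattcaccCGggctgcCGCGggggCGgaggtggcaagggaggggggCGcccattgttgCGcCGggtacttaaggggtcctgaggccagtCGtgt
SST (chr3:187670400-187670499, minus strand, 5 CpG): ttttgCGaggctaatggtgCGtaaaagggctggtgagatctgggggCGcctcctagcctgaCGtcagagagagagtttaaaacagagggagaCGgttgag

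Libraries of day 0 held 18630957 to 25073821 counts on genes and those of day 4 held 15824804 to 19991383. The 12 libraries of day 0 and the 3 UHRF1-AID libraries of day 4 came from 1 alignment folder without spike-in counts. The other 9 libraries of day 4 came from another folder, with spike-ins at 0.8912% to 1.647% of counts. The comparison of UHRF1-AID with WT at day 4 therefore crosses folders, and the folder cannot be told apart from the line there. Day 4 against day 0 in UHRF1-AID cells stays within 1 folder, and so do DNMT1-AID and the compound line against WT at day 4. Day 4 against day 0 crosses folders in WT, DNMT1-AID and compound cells, where day and folder cannot be told apart. The markers of the labelled cell type were present, with 8 colorectal epithelial genes summing to 3960 to 8230 CPM in every library, except that VIL1, the brush border protein villin, had 0 to 7 counts per library and 0 in all WT libraries of day 4. CPM are counts scaled to library size by edgeR's TMM method over all 24 libraries. UHRF1 and DNMT1 transcripts are no check of the depletion, which acts on the protein. At day 4, DNMT1 stood at 23.7 to 44.9 CPM in WT, 26.9 to 65.0 CPM in UHRF1-AID, 13.1 to 16.5 CPM in DNMT1-AID and 9.24 to 14.3 CPM in compound cells.

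In WT cells most of these genes were silent. CDKN2A, RASSF1, SOCS1, DAPK1, NDRG4, RUNX3, MGMT, HLTF, TIMP3 and CACNA1G, 10 genes in all, had at least 10 counts in every one of the 6 WT libraries. The other 30 had at most 5 counts in any WT library, and 21 of those were at 0 in all 6. A count of 0 allows up to 3 counts, or 0.18 to 0.191 CPM in the WT libraries of day 4, and this limit covers counting error only. Among the expressed genes the level per exon length in WT at day 4 was highest for CDKN2A, at 25.58 ± 1.43 RPKM (SD, n = 3). CDKN2A encodes a cyclin-dependent kinase inhibitor among its products, and counts per gene do not separate its transcripts. The lowest level was that of TIMP3, an inhibitor of matrix metalloproteinases, at 0.160 ± 0.0268 RPKM. The repair enzyme MGMT stood at 11.7 ± 1.52 RPKM and the helicase-like chromatin factor HLTF at 10.59 ± 0.176 RPKM.

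**Figure D1:**
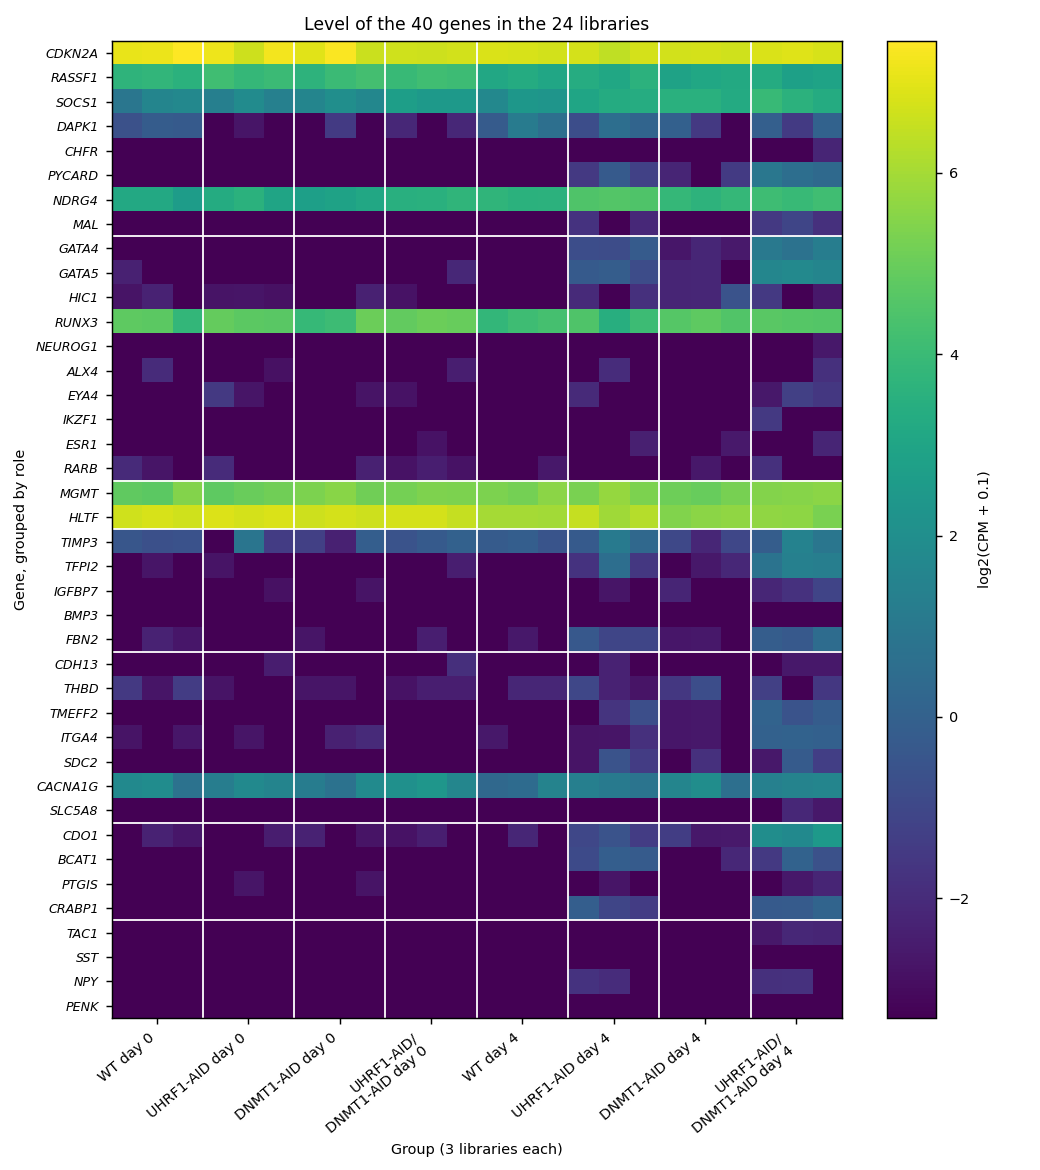
Levels of the 40 genes (rows, grouped by role) in the 24 libraries (columns, 3 per group), as log2(CPM + 0.1) on the colour scale. The rows of the genes that were silent in WT are dark up to the last columns, where UHRF1-AID cells and the compound line at day 4 show counts for part of them, while BMP3, SST and PENK stay dark in all 24 libraries.

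The question of the day 4 comparisons was which of the genes are reactivated, and by which depletion. Calls required a log2 fold change beyond 1 in either direction together with a Benjamini-Hochberg adjusted p below 0.05 in edgeR's quasi-likelihood test. In the compound line, 10 genes were called higher than in WT: SOCS1, PYCARD, GATA4, GATA5, TIMP3, TFPI2, FBN2, ITGA4, CDO1 and CRABP1. Of all genes tested there, 9.21% were called higher. None of the 40 was called lower in that line, where 2.49% of all genes tested were. 18 of the 40 genes were tested, and 8 of the 10 called passed the filter on low counts only through the compound line, so the share of tested genes that were called is not a result about the list. In UHRF1-AID cells 1 gene, SOCS1, was called higher among 10 tested, with 5.77% of all genes tested called higher. In DNMT1-AID cells SOCS1 was again the 1 gene called higher of 10 tested, with 2.29% of all genes. None of the tested genes was called lower in either line by edgeR (1.22% and 0.28% of all genes were). At an unadjusted p under 0.05, 0 of the 10 lay lower with UHRF1 depleted and 4 with DNMT1 depleted, and DESeq2 called 0 lower in both. Without the size requirement, NDRG4 joined SOCS1 in UHRF1-AID (10.9% of all genes higher, 6.57% lower), RUNX3 joined it in DNMT1-AID (5.02% higher, 2.93% lower) and both joined the 10 in compound cells (20.4% higher, 17.8% lower), while HLTF was lower in the last 2.

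The count in UHRF1-AID cells rested on the filter on low counts. Without a filter, 11 of 32 tested genes were called higher than in WT: BCAT1, CDO1, CRABP1, FBN2, GATA4, GATA5, PYCARD, SDC2, SOCS1, TFPI2 and TMEFF2 (5.43% of all genes). For the compound line the same setting called 15 of 37 higher than in WT (8.22% of all genes). These were the same 11 genes with IGFBP7, ITGA4, MAL and TIMP3. In a fit of all 24 libraries, the 20 genes of the list that were tested are the same for every line. The numbers called higher there were 10 for UHRF1-AID (7.55% of all genes), 1 for DNMT1-AID (2.48%) and 11 for the compound line (9.51%). Of the genes called, all but SOCS1 had at most 5 counts in any WT library. They passed that fit's filter on low counts only through UHRF1-AID or compound cells at day 4. Their share of the 20 is therefore not a result about the list. In the same order of lines, DESeq2 called 8, 1 and 12 (5.9%, 2.22% and 9.1%). The DNMT1-AID count was 1, SOCS1, under each of these settings (2.06% of all genes without a filter). The low counts behind these calls are given library by library below.

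Reactivation can also be read from counts alone, without a filter or a model. Of the 21 genes at 0 counts in all 6 WT libraries, none had counts in all 3 libraries of a tagged line at day 0 (0.134%, 0.268% and 0.626% of other silent genes did in UHRF1-AID, DNMT1-AID and compound cells). At day 4, 5 of the 21 (23.81%) had counts in all 3 UHRF1-AID libraries: BCAT1, CRABP1, GATA4, PYCARD and SDC2. In DNMT1-AID cells 1 of the 21 (4.762%) did, GATA4, with 1, 2 and 1 counts. In compound cells 10 (47.619%) did: BCAT1, CRABP1, EYA4, GATA4, IGFBP7, MAL, PYCARD, SDC2, TAC1 and TMEFF2. Of 4470 other protein-coding genes at 0 in all WT libraries, 9.82% had counts in all 3 UHRF1-AID, 2.42% in all 3 DNMT1-AID and 12.8% in all 3 compound libraries at day 4. Summed over the 21 genes, UHRF1-AID libraries of day 4 held 188 counts, DNMT1-AID 20 and compound cells 354.

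**Figure D2:**
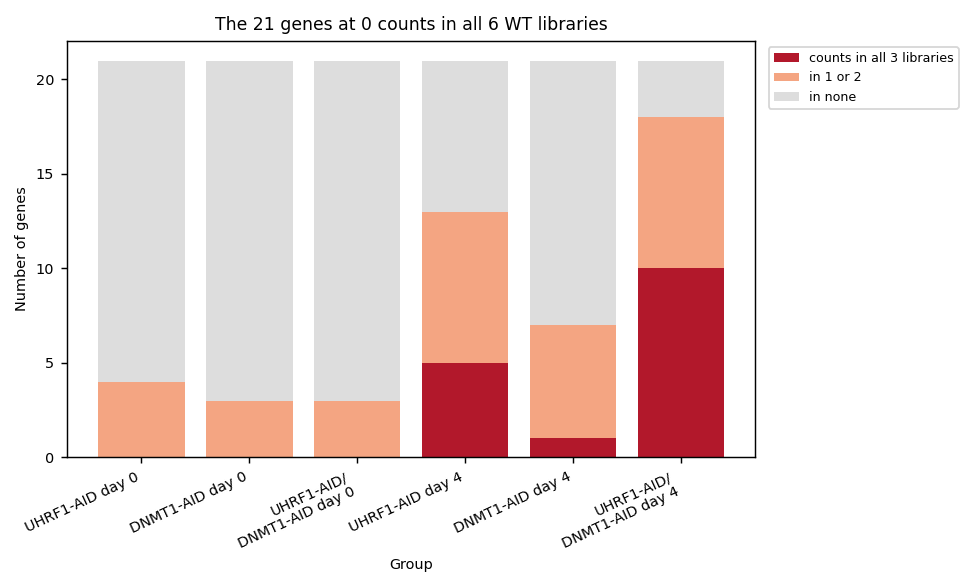
The 21 genes at 0 counts in all 6 WT libraries, by the number of libraries in which each tagged line had counts (bars from 0, number of genes). At day 0 no gene had counts in all 3 libraries of a line, while at day 4 the UHRF1-AID line had 5 such genes, the DNMT1-AID line 1 and the compound line 10.

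Among the regulators of growth, death and signalling, SOCS1 and PYCARD rose in the compound line. SOCS1 encodes a suppressor of cytokine signalling that inhibits JAK kinases, at chr16:11254405-11256200 on hg38, and its promoter stretch is the first of those printed above. Its counts at day 4 were 50, 84 and 81 in WT, 164, 183 and 221 in UHRF1-AID, 195, 188 and 145 in the DNMT1-AID line and 251, 191 and 166 in compound cells. Every depleted library lay above every WT library of that day. Of all genes tested, 21%, 14.2% and 24.5% lay so in UHRF1-AID, DNMT1-AID and compound cells. In CPM the WT level was 4.371 ± 1.03 (SD, n = 3), against 9.306 ± 1.17 in UHRF1-AID, 10.74 ± 1.15 in the DNMT1-AID line and 12.46 ± 2.78 in compound cells. The log2 fold change over WT was 1.08 for UHRF1-AID (SE 0.238, edgeR adjusted p = 0.014), 1.30 for DNMT1-AID (SE 0.21, edgeR adjusted p = 0.00129) and 1.53 for the compound line (SE 0.214, edgeR adjusted p = 1.2e-05). The call in UHRF1-AID was lost when WT library 1 or UHRF1-AID library 3 was left out, with a lowest log2 fold change of 0.89. The differences between the depleted lines did not pass the test, with a log2 difference of 0.46 (SE 0.202, edgeR adjusted p = 0.136) between compound and UHRF1-AID cells and of 0.22 (SE 0.169, edgeR adjusted p = 0.392) between compound and DNMT1-AID cells.

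SOCS1 was also the 1 gene of the list called between lines before auxin. The compound line held 150, 128 and 125 counts at day 0 against 36, 56 and 57 in WT, a log2 fold change of 1.15 (SE 0.239, edgeR adjusted p = 0.0425), with 0.656% of all genes called higher and 0.656% lower. This call was lost in 5 of the 6 fits that left out a library. Against its own day 0, SOCS1 was called higher at day 4 in UHRF1-AID (log2 fold change 1.75), DNMT1-AID (1.73) and compound cells (1.13, and 0.93 and no longer called without compound library 1 of day 4), and in WT cells the value was 0.76 (SE 0.291, edgeR adjusted p = 0.0724).

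PYCARD encodes ASC, the adaptor of inflammasomes, at chr16:31201485-31203450. It had no count in any library of day 0 or of WT. At day 4 the counts were 5, 14 and 7 in UHRF1-AID, 2, 0 and 4 in the DNMT1-AID line and 30, 22 and 20 in compound cells, and the compound libraries lay above all others. Of all genes tested, 24.5%, 17.7% and 17.9% lay wholly above WT, UHRF1-AID and DNMT1-AID in the compound line at day 4. The level in compound cells, 1.476 ± 0.333 CPM (SD, n = 3), was at least 8.02-fold higher than in WT, taken against the limit of 3 counts per library (edgeR adjusted p = 5.42e-06). The mean of UHRF1-AID cells, 0.4362 ± 0.266 CPM, was 2.37-fold that limit. Annotated exons of the antisense gene PYCARD-AS1 cover 59.7% of its exon bases, and without knowing whether counting used strand the reads of both genes cannot be told apart.

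No other gene of this group passed both thresholds against WT. NDRG4, a member of the N-myc downstream regulated family, had 204, 194 and 200 counts in WT at day 4 and 458, 452 and 475 in UHRF1-AID cells. The log2 fold change of 0.88 (SE 0.148, edgeR adjusted p = 0.00379) passed the p threshold and stayed under the required size. NDRG4 in DNMT1-AID cells (246, 208 and 220 counts) lay near WT, at a log2 fold change of 0.17 (SE 0.152, edgeR adjusted p = 0.51). CDKN2A lay between 1596 and 2354 counts in all 12 libraries of day 4, and its log2 fold changes over WT were -0.13, -0.06 and 0.08 in UHRF1-AID, DNMT1-AID and compound cells. RASSF1, a Ras-association domain scaffold, lay between 109 and 263 counts, at 0.19, -0.08 and -0.12. MAL, a membrane raft protein and stool DNA marker candidate, had no count at day 0 or in WT and DNMT1-AID, 4, 0 and 3 in UHRF1-AID and 4, 6 and 3 in compound cells. CHFR, a mitotic checkpoint ubiquitin ligase, had 2 counts in 1 compound library and none elsewhere.

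DAPK1, a kinase that promotes cell death, had fewer counts in the tagged lines than in WT at day 0. THBD, given below, went the same way in both single lines. For DAPK1, WT cells held 11, 15 and 13 counts at day 0. UHRF1-AID held 0, 1 and 0, DNMT1-AID 0, 5 and 0 and compound cells 3, 0 and 3. No tagged library reached the WT range of DAPK1. Of all genes tested, 4.79%, 4.1% and 13.2% lay wholly below WT at day 0 in UHRF1-AID, DNMT1-AID and compound cells. None of these differences was called at day 0 (in UHRF1-AID a log2 fold change of -4.97, SE 0.782, edgeR adjusted p = 0.411). Without a filter on low counts, DAPK1 was called lower than WT at day 0 in UHRF1-AID (0.0396% of all genes) and in the compound line (0.521%). The same setting also called it higher at day 4 than at day 0 in WT (3.51% of all genes) and in compound cells (11.5%), and lower than WT at day 4 in the DNMT1-AID line (0.289%). At day 4 the counts were 12, 36 and 24 in WT, 10, 26 and 22 in UHRF1-AID, 15, 4 and 0 in the DNMT1-AID line and 14, 4 and 16 in compound cells. DAPK1 was accordingly called higher at day 4 than at day 0 in UHRF1-AID cells (log2 fold change 5.50, SE 0.878, edgeR adjusted p = 0.000817), at a level that did not pass the test against WT of day 4 (log2 fold change -0.62, SE 0.485, edgeR adjusted p = 0.405).

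Of the transcription factors, GATA4 and GATA5 rose in the compound line. Both are zinc-finger factors of the GATA family with roles in endoderm and heart. GATA4 had no count at day 0 or in WT. At day 4 it had 10, 9 and 16 counts in UHRF1-AID, 1, 2 and 1 in the DNMT1-AID line and 32, 25 and 38 in compound cells, and the 3 lines did not overlap. Of all genes tested, 17.7% lay wholly above UHRF1-AID in compound cells and 21.3% wholly above DNMT1-AID in UHRF1-AID cells. The compound level of 1.937 ± 0.342 CPM (SD, n = 3) was at least 10.5-fold that of WT (edgeR adjusted p = 1.14e-06), and the UHRF1-AID level of 0.5684 ± 0.151 CPM at least 3.09-fold. GATA5, at chr20:62463497-62475970, had counts of 15, 15 and 10 in UHRF1-AID, 2, 2 and 0 in the DNMT1-AID line and 48, 52 and 48 in compound cells, with 0 in WT at day 4 and at most 3 in any library of day 0. Its compound level of 3.033 ± 0.227 CPM was at least 16.5-fold that of WT (edgeR adjusted p = 8.08e-08), and that of UHRF1-AID cells, 0.6626 ± 0.175 CPM, at least 3.6-fold.

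RUNX3, a Runt-domain factor that acts downstream of TGF-beta, was expressed in WT and moved by less than the required size. It had 219, 282 and 322 counts in WT at day 4, 415, 448 and 354 in DNMT1-AID and 426, 390 and 402 in compound cells. The log2 fold changes of 0.57 (SE 0.15, edgeR adjusted p = 0.0313) and 0.59 (SE 0.139, edgeR adjusted p = 0.00211) passed the p threshold. In UHRF1-AID cells, with 465, 202 and 355 counts, the value was -0.03 (SE 0.26, edgeR adjusted p = 0.954). The remaining 7 factors stayed at a few counts. HIC1, a zinc-finger repressor, reached 9 counts in 1 DNMT1-AID library, and it shares 29.8% of its exon bases with SMG6 on the other strand. Its summed counts at day 4 were 13 in DNMT1-AID, 7 in UHRF1-AID and 5 in compound cells, against 0 in WT. HIC1 was not called against WT at day 4 in any of these lines without a filter on low counts. EYA4 had 1, 5 and 4 counts in compound cells at day 4 and also 5 in 1 UHRF1-AID library of day 0. The lymphoid factor IKZF1 had 4 counts in 1 compound library, the homeobox gene ALX4 at most 3 in any library, the oestrogen receptor ESR1 at most 2, the retinoic acid receptor RARB at most 3 and the neurogenic factor NEUROG1 1 count in all 24 libraries.

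**Figure D3:**
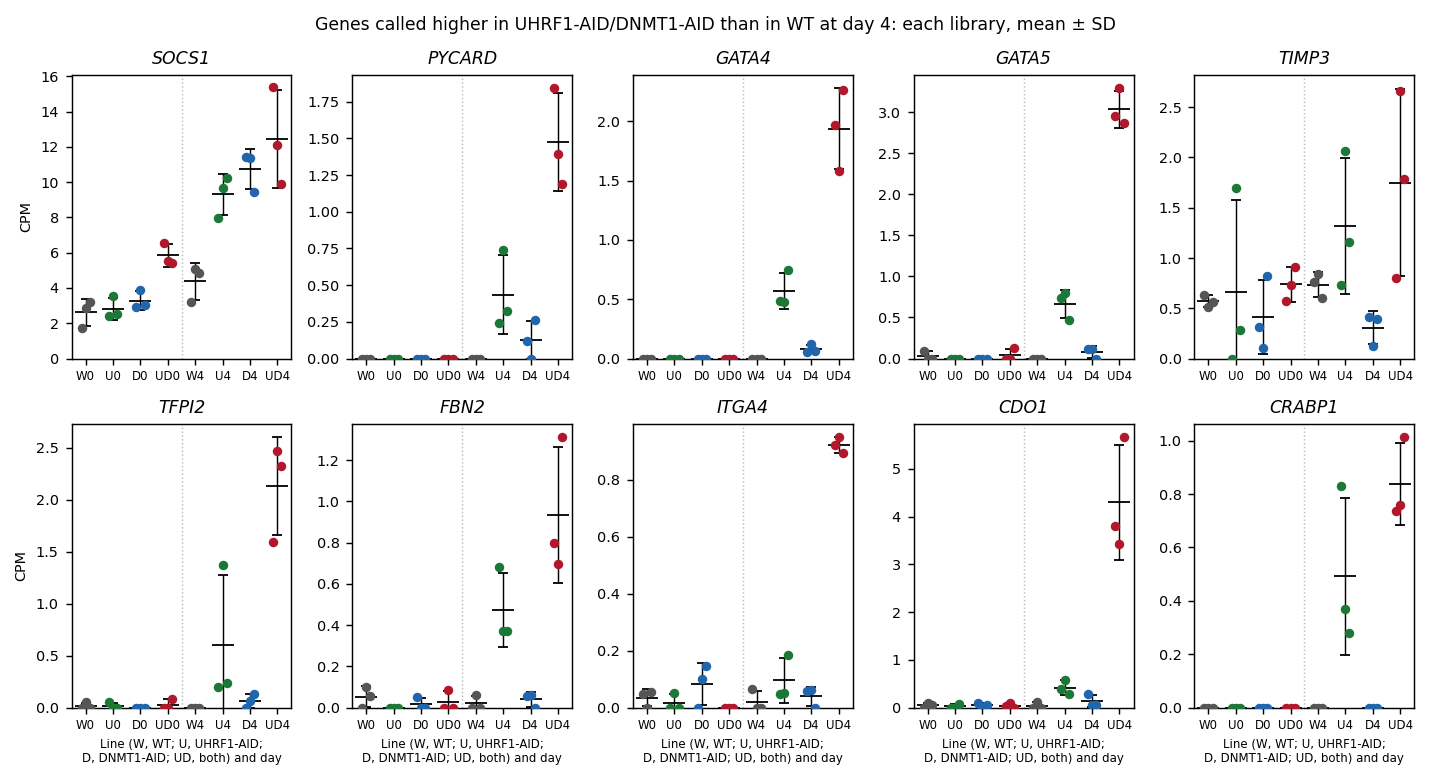
CPM of the 10 genes called higher in UHRF1-AID/DNMT1-AID than in WT at day 4, for each library (points) with the mean and SD (n = 3) of each of the 8 groups. Except for SOCS1 and TIMP3, the groups of day 0 and WT at day 4 lie at or near 0, the mean of UHRF1-AID cells at day 4 lies below that of compound cells, for ITGA4 near 0, and DNMT1-AID cells stay near 0.

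Of the secreted inhibitors and matrix proteins, TFPI2 and FBN2 rose in the compound line, and TIMP3 passed the test with a call that did not hold without single libraries. TFPI2, a serine protease inhibitor of the matrix at chr7:93885396-93890991, had 26, 39 and 39 counts in compound cells at day 4, 4, 26 and 5 in UHRF1-AID, 0, 1 and 2 in the DNMT1-AID line and 0 in WT. The compound level was at least 11.6-fold that of WT (edgeR adjusted p = 8.07e-07), while in UHRF1-AID cells, at least 3.26-fold, 1 library gave most of the counts. FBN2, a fibrillin of extracellular microfibrils at chr5:128257909-128659185, had 13, 11 and 22 counts in compound cells, 14, 7 and 8 in UHRF1-AID, 1, 1 and 0 in the DNMT1-AID line and 0, 1 and 0 in WT. The ratio of summed counts to WT was 46.1 (exact 95% counting interval 7.86 to 1860, edgeR adjusted p = 9.63e-05) in compound cells and 23.3 (3.86 to 950) in UHRF1-AID cells.

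TIMP3 had 12, 14 and 10 counts in WT at day 4, 15, 39 and 25 in UHRF1-AID, 7, 2 and 6 in the DNMT1-AID line and 13, 42 and 30 in compound cells, so compound and WT libraries overlapped. The log2 fold change of the compound line was 1.25 (SE 0.439, edgeR adjusted p = 0.0287), and it was called in 1 of 6 fits that left out a library. The call was also lost by DESeq2 and in the fit of all 24 libraries. Over WT, the log2 fold change of TIMP3 was 0.82 in UHRF1-AID and -1.24 in DNMT1-AID cells, and neither was called. IGFBP7, which binds insulin-like growth factors, had 2, 3 and 6 counts in compound cells at day 4 and at most 2 elsewhere, and it shares exon bases with POLR2B (14%). BMP3, a TGF-beta family ligand, had no count in any of the 24 libraries.

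Of the surface proteins and channels, ITGA4 rose in the compound line. It encodes the alpha-4 integrin subunit, at chr2:181457202-181536187. The compound libraries of day 4 had 15, 15 and 15 counts, against 1, 1 and 4 in UHRF1-AID, 1, 1 and 0 in the DNMT1-AID line and 1, 0 and 0 in WT. ITGA4 thus stood near 0 in both single lines, and the ratio of the compound line to WT was 45.1 (exact 95% counting interval 7.69 to 1820, edgeR adjusted p = 7.36e-05). TMEFF2, a transmembrane protein with follistatin-like domains, had no count at day 0 or in WT. At day 4 it had 16, 9 and 13 counts in compound, 0, 4 and 11 in UHRF1-AID and 1, 1 and 0 in DNMT1-AID cells. It did not pass the filter against WT, where the mean compound level was 4.21-fold the limit. TMEFF2 was called higher against the compound line's own day 0 (edgeR adjusted p = 2.11e-05). SDC2, a syndecan and stool DNA marker, had 1, 12 and 5 counts in compound and 1, 11 and 6 in UHRF1-AID cells, 0, 3 and 0 in the DNMT1-AID line and 0 in all other libraries. 

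CACNA1G, a T-type calcium channel used in panels for the CpG island methylator phenotype, was expressed throughout, at 18, 21 and 45 counts in WT, 50, 39 and 36 in UHRF1-AID, 49, 62 and 22 in the DNMT1-AID line and 41, 43 and 48 in compound cells of day 4. Its groups overlapped and no difference was called. THBD, the thrombin receptor thrombomodulin, reached 5 counts in WT at day 0 and at most 8 in any library. Its summed counts at day 0 were 11 in WT, 1 in UHRF1-AID and 2 in DNMT1-AID cells. The ratios of WT to these lines were 12.2 (exact 95% counting interval 1.78 to 526) and 5.68 (1.24 to 52.7). Without a filter on low counts THBD was not called lower in either line. At day 4 the summed counts were 11 in UHRF1-AID and 12 in DNMT1-AID cells. The ratios to day 0 were 11.6 (exact 95% counting interval 1.68 to 498) and 7.31 (1.63 to 67.2). Neither rise was called without a filter, and in DNMT1-AID cells it crosses the alignment folders. CDH13, a cadherin without a cytoplasmic tail, had at most 4 counts and SLC5A8, a monocarboxylate transporter, at most 2.

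Of the metabolic genes, CDO1 and CRABP1 rose in the compound line. CDO1, cysteine dioxygenase, at chr5:115804733-115816954, reached the highest level per exon length of the genes that were silent or nearly silent in WT. It had 62, 54 and 95 counts in compound cells at day 4, 8, 11 and 6 in UHRF1-AID, 5, 1 and 1 in the DNMT1-AID line and 0, 2 and 0 in WT. The compound level of 1.962 ± 0.548 RPKM (SD, n = 3) compares with 0.1903 ± 0.0701 RPKM in UHRF1-AID cells. The ratio of summed counts to WT was 106 (exact 95% counting interval 28.9 to 878, edgeR adjusted p = 2.91e-08) in compound and 10 (2.5 to 87.4) in UHRF1-AID cells. At 1.962 RPKM, CDO1 stood below CDKN2A, MGMT, HLTF, RUNX3, RASSF1 and SOCS1 in the same cells.

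CRABP1, a cellular retinoic acid binding protein at chr15:78340324-78348230, had no count in any library of day 0, of WT or of DNMT1-AID. UHRF1-AID cells at day 4 held 17, 7 and 6 counts and compound cells 12, 12 and 17, so these groups overlapped. The compound level was at least 4.54-fold that of WT (edgeR adjusted p = 7.93e-05) and the UHRF1-AID level at least 2.67-fold. An unnamed annotated gene shares 47.2% of its exon bases. BCAT1, a branched-chain aminotransferase and blood DNA marker, had 9, 16 and 16 counts in UHRF1-AID, 0, 0 and 2 in the DNMT1-AID line and 4, 15 and 9 in compound cells, with 0 in all other libraries. Its UHRF1-AID level of 0.6756 ± 0.212 CPM (SD, n = 3) was 3.67-fold the limit in WT and its compound level of 0.5771 ± 0.354 CPM 3.14-fold, within the spread of each other. PTGIS, prostacyclin synthase, had at most 2 counts in any library.

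The neuropeptide precursors stayed at or near 0. NPY had 4, 3 and 0 counts in UHRF1-AID and 3, 3 and 0 in compound cells at day 4 and none elsewhere. TAC1, the precursor of substance P, had 1, 2 and 2 counts in compound cells and none elsewhere. SST (somatostatin) and PENK (proenkephalin) had no count in 24 libraries, which for the compound libraries of day 4 allows up to 0.179 to 0.19 CPM each.

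The depleted lines were compared with each other to ask whether the compound line exceeded the single ones. Against DNMT1-AID cells, 9 genes were called higher in the compound line at day 4 (5.74% of all genes): CDO1, CRABP1, FBN2, GATA4, GATA5, ITGA4, PYCARD, TFPI2 and TIMP3. 18 genes were tested there, and all 9 had under 10 counts in every DNMT1-AID library, so they entered the test only through the compound line and their share is not a result about the list. None was called lower (1.1% of all genes). Against UHRF1-AID cells, 5 of 19 tested were called higher (4.2% of all genes): CDO1 (log2 difference 3.40, SE 0.379), ITGA4 (3.19, SE 0.577), GATA5 (2.23, SE 0.329), PYCARD (1.80, SE 0.47) and GATA4 (1.79, SE 0.367), with adjusted p-values of edgeR between 0.0011 and 0.0282. None was called lower (0.931% of all genes). ITGA4 had under 10 counts in every UHRF1-AID library, and CDO1, PYCARD and GATA4 had under 10 in at least 1. None of the 5 passed the filter on low counts in UHRF1-AID against WT at day 4. All 5 thus entered the present test only through the compound line, so the share is not a result about the list. This comparison crosses the alignment folders. CDO1, ITGA4 and GATA5 were called under every alternative run, whereas PYCARD was called in 1 of 6 fits that left out a library, and GATA4 was lost without compound library 3. Over all genes, levels relative to the other day 4 libraries went with exon length differently in these lines. The Spearman correlations were -0.156, -0.191 and -0.175 in compound and 0.271, -0.0984 and 0.204 in UHRF1-AID libraries. No alternative took up gene length, and its part in these calls was not tested. Between the single lines, 1 gene, TIMP3, was called higher in UHRF1-AID than in DNMT1-AID cells (2.88% of all genes; log2 difference 2.04, SE 0.575, edgeR adjusted p = 0.042), and it was called in 1 of 6 fits that left out a library. None was called lower (2.43% of all genes). TIMP3 had under 10 counts in every DNMT1-AID library and entered this test only through UHRF1-AID cells. Without a filter on low counts 7 were called in that comparison (2.64% of all genes), BCAT1, CRABP1, FBN2, GATA4, GATA5, TFPI2 and TIMP3.

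Against day 0 of the same line, 11 genes were called higher at day 4 in the compound line (15.1% of all genes): SOCS1, PYCARD, GATA4, GATA5, TIMP3, TFPI2, FBN2, TMEFF2, ITGA4, CDO1 and CRABP1. 18 genes were tested there, and the 9 other than SOCS1 and TIMP3 had under 10 counts in every compound library of day 0 and entered the test only through day 4, so nothing is read from their share. This comparison crosses the alignment folders. TIMP3 (log2 fold change 1.28) was no longer called without compound library 2 of day 4 (0.83) or with all 24 libraries in 1 fit (1.29). In UHRF1-AID cells, within 1 alignment folder, DAPK1, NDRG4 and SOCS1 were called higher (3 of 10 tested; 12.1% of all genes) and no gene lower (9.82% of all genes). DAPK1 had under 10 counts in every UHRF1-AID library of day 0 and entered the test only through day 4. Nothing is read from this share. At an unadjusted p under 0.05, 3 tested genes lay lower there, and DESeq2 called 0 lower. HLTF, RASSF1 and RUNX3 were lower there at an edgeR adjusted p under 0.05 without the size requirement (22.9% of all genes). Without a filter, 13 were called higher in UHRF1-AID cells over day 0 (9.21% of all genes): BCAT1, CDO1, CRABP1, DAPK1, FBN2, GATA4, GATA5, NDRG4, PYCARD, SDC2, SOCS1, TFPI2 and TMEFF2. In DNMT1-AID cells 1 gene was called higher, SOCS1 (8.62% of all genes). NDRG4 in UHRF1-AID cells had 194, 226 and 193 counts at day 0 and 458, 452 and 475 at day 4 (log2 fold change 1.25, SE 0.182, edgeR adjusted p = 0.000491). Without the size requirement, NDRG4 was also higher at day 4 than at day 0 in WT, DNMT1-AID and compound cells. Of all genes, 17.7%, 19.5% and 35.2% were higher by that rule, and these comparisons cross the alignment folders.

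HLTF was the 1 gene called lower with time, in DNMT1-AID (log2 fold change -1.10, SE 0.118, edgeR adjusted p = 7.25e-05; 6.68% of all genes were called lower) and in compound cells (-1.11, SE 0.101, edgeR adjusted p = 6.16e-08; 11.5% of all genes). In both lines this comparison crosses the alignment folders, so day and folder cannot be told apart. It also lay lower at day 4 in WT cells, at -0.72 (SE 0.0988, edgeR adjusted p = 0.000953). Against WT of day 4, with 1005, 1074 and 1041 counts, HLTF had 728, 782 and 792 in DNMT1-AID and 825, 782 and 661 in compound cells, at log2 fold changes of -0.43 (SE 0.105, edgeR adjusted p = 0.0213) and -0.44 (SE 0.109, edgeR adjusted p = 0.00331), under the required size.

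The remaining comparisons, of WT over time and of the single lines before auxin, gave no calls. In WT cells between day 0 and day 4, 0 of 10 tested genes were called higher or lower by edgeR (5.37% and 6.53% of all genes were). At an unadjusted p under 0.05, 3 lay higher and 3 lower, and DESeq2 called 0. At an edgeR adjusted p under 0.05 without the size requirement, NDRG4 was higher (17.7% of all genes). CDKN2A, HLTF and RASSF1 were lower by the same rule (17.8% of all genes). At day 0, 0 of 10 were called for UHRF1-AID (0% of all genes called higher and 0% lower) and for DNMT1-AID (0% and 0.00723%), with 1 higher and 1 lower at an unadjusted p under 0.05 for UHRF1-AID, 0 and 1 for DNMT1-AID, and 0 by DESeq2.

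**Figure D4:**
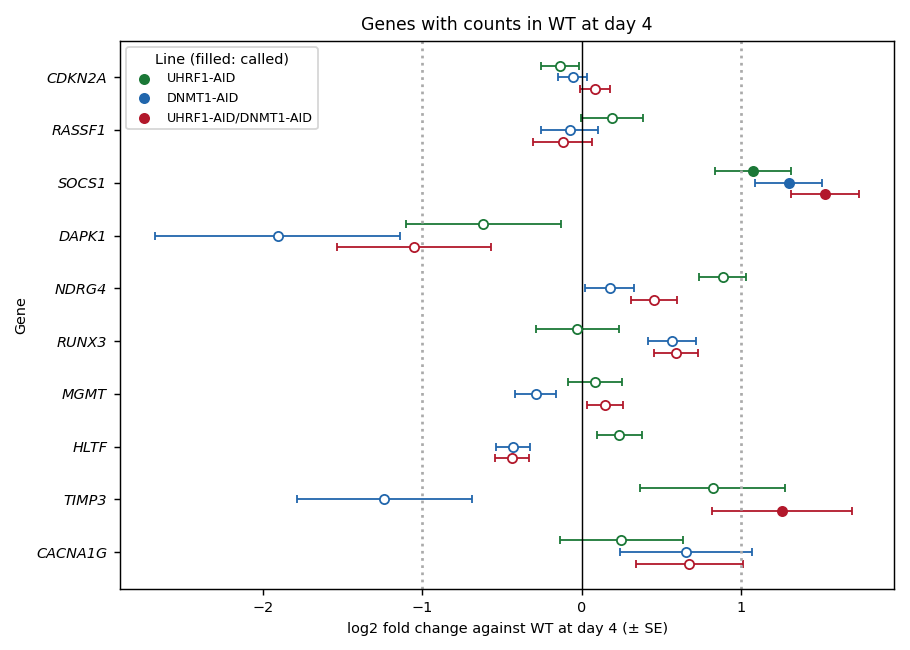
log2 fold changes against WT at day 4 (points, ± SE) of the 10 genes with counts in WT, in the 3 depleted lines, with filled points for called genes and dotted lines at the required size of 1. SOCS1 lies right of the line at 1 in all 3 lines and TIMP3 in the compound line, while CDKN2A, RASSF1 and MGMT lie near 0.

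Of 27 further genes known for promoter methylation in colorectal cancer, taken from a separate written list, 6 of 13 tested were called higher in UHRF1-AID, 1 of 9 in DNMT1-AID and 8 of 15 in compound cells against WT at day 4. Of all genes tested, 5.77%, 2.29% and 9.21% were called higher. 5 of the 6, the 1 and 6 of the 8 had under 10 counts in every WT library of day 4 and entered the test only through the depleted line, so these shares are not a result about the list. SPARC, a matrix glycoprotein, was called in all 3 lines, with means of 0.02126 CPM in WT, 20.66 in UHRF1-AID, 2.894 in the DNMT1-AID line and 36.67 in compound cells. The netrin receptor UNC5C, at 0 in WT, reached 5.335 CPM in UHRF1-AID, 0.2456 in the DNMT1-AID line and 17.11 in compound cells. The Wnt antagonist SFRP1 (1.745, 0.08508 and 3.605 CPM) and the intestinal homeobox factor CDX1 (0.9099, 0.102 and 1.798 CPM) were likewise at 0 in WT of day 4 and were called in UHRF1-AID and compound cells.

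Markers of other cell types moved with the compound line in part. The 6 fibroblast markers summed to 16.3 to 20.2 CPM in compound, 9.16 to 14 in DNMT1-AID, 4.6 to 11.9 in UHRF1-AID and 3.32 to 8.78 in WT cells of day 4. In the compound line COL1A1 was the 1 of the 6 with over 10 counts, and 1 of the 6 was at 0. The 5 immune markers summed to 1.84 to 3.07 CPM in compound and 1.16 to 2.24 CPM in UHRF1-AID cells, against 0.0638 to 0.181 CPM in WT, and the 4 endothelial markers to at most 1.9 CPM in any day 4 library. Their part in the results was not tested. In these bulk samples, more cells that express a gene and more RNA of it per cell cannot be told apart.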

How the data were processed

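RNA-seq counts of 24 libraries of HCT116 lines were used, in 8 groups of 3 given by the labels. The authors trimmed paired reads, used STAR for alignment to hg38 and featureCounts for counting on genes, and deposited raw counts without normalization. Strand and multiple alignments in counting are not given in the sources used here, and 19 of the 40 genes share exon bases with another gene. From the counts, 13 comparisons of 6 libraries each were fitted in R 4.3.3 with edgeR 4.0.16 (filterByExpr, TMM, robust quasi-likelihood test, Benjamini-Hochberg adjustment over all genes tested). Calls required an adjusted p below 0.05 and a log2 fold change beyond 1 in either direction, the thresholds of the study's methods. SE is that of the fitted log2 fold change. CPM was scaled by TMM over all libraries and RPKM divides it by exon length. Where a group was at 0, folds were taken against 3 counts per library. With 1 to 3 counts, the ratio of summed counts is given with an exact 95% interval. Both cover counting error only. The first covers that of the group at 0 alone, since the mean of the higher group was taken as it stood.

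The 40 genes and all lists were chosen with earlier results of these data known. By a rule fixed with them, every gene is accounted for, and genes called against WT at day 4 are given with values. Of the further list, 4 with the smallest p are given. Spike-in rows (0.8912% to 1.647% of counts in 9 libraries, 0 in 15) stayed out of sizes and tests. Alternatives were RLE scaling, no filter on low counts, 1 fit of all 24 libraries, DESeq2 1.42.0, a block on replicate number, no minimum fold change, and each library left out in 78 fits. Between day 0 and day 4 of UHRF1-AID cells, the deviations of same-numbered libraries correlated weakly, at 0.226, 0.144 and 0.122. Whether replicate numbers pair libraries is not given by the labels, and the main fits used no block. No replicate pair agreed within sampling noise (chi-square over its degrees of freedom 3.71 to 64.3 in 24 pairs). The fits were tested on simulated data.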

Additional observations from a re-analysis of the deposited data

Results flagged for a closer look

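Genes are given here whose effect against the same WT libraries differed between 2 depleted lines by the direct test between those lines at day 4, as log2 differences from edgeR. Between the compound line and DNMT1-AID cells these were PYCARD (3.51), GATA4 (4.46), GATA5 (5.10), TIMP3 (2.49), TFPI2 (4.96), FBN2 (4.30), ITGA4 (4.27), CDO1 (4.85) and CRABP1 (6.79), all higher in the compound line. Most of them stood at 0 to 5 counts per DNMT1-AID library, so the fitted values depend on the prior count and are no bound. Between the compound line and UHRF1-AID cells these were CDO1 (3.40), ITGA4 (3.19), GATA5 (2.23), PYCARD (1.80) and GATA4 (1.79), higher in the compound line. Between UHRF1-AID and DNMT1-AID cells TIMP3 differed by 2.04. In DNMT1-AID cells TIMP3 lay below WT of day 4 (log2 fold change -1.24, not called), which enters both of its differences given here. Comparisons with UHRF1-AID at day 4 cross the alignment folders, and folder and line cannot be told apart there.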

How the results depend on the processing

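Of 45 calls of genes of the list over the 13 comparisons, 37 were made under every alternative in which the gene was tested and 8 were lost in at least 1, and no call changed direction. Without a filter on low counts, the number called higher became 11 (UHRF1-AID against WT at day 4), 13 (UHRF1-AID over day 0), 1 (WT over day 0) and 7 (UHRF1-AID against DNMT1-AID), and the number called lower 1 (DNMT1-AID against WT at day 4), 2 (compound line over day 0), 1 (UHRF1-AID at day 0) and 1 (compound line at day 0). With all 24 libraries in 1 fit, 10, 12, 2 and 6 were called higher in UHRF1-AID against WT at day 4, in UHRF1-AID and DNMT1-AID over day 0 and in UHRF1-AID against DNMT1-AID, and with DESeq2 8 and 12 in UHRF1-AID against WT and over day 0 and 4 against DNMT1-AID. With no minimum fold change the numbers higher were 2 in UHRF1-AID and 2 in DNMT1-AID against WT at day 4, 2 in DNMT1-AID and 1 in WT over day 0, and 3 in UHRF1-AID against DNMT1-AID. The numbers lower were then 1 and 1 in DNMT1-AID and the compound line against WT at day 4, 3, 2, 3 and 3 in UHRF1-AID, DNMT1-AID, compound and WT cells over day 0, 1 in the compound line at day 0 and 1 in the compound line against UHRF1-AID. More genes enter the tests without a filter or in the larger fit, and the cause of the other changes was not tested.

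With the replicate number as a block, 0 genes in place of 1 were called higher in the compound line at day 0 and 0 in place of 1 in UHRF1-AID against DNMT1-AID. Whether the numbers pair libraries is not given by the labels (correlations over all comparisons ran from -0.621 to 0.235). In UHRF1-AID cells over day 0 the block gave 3 as before. The block moved no other number of calls by over 1.5 times.

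Leaving out 1 library moved the numbers called higher to 1 to 3 in UHRF1-AID against WT at day 4, to 3 to 7 in UHRF1-AID over day 0, to 0 to 1 in WT over day 0, to 0 to 1 in the compound line at day 0, to 0 to 2 in UHRF1-AID against DNMT1-AID and to 3 to 6 in the compound line against UHRF1-AID. It moved the numbers called lower to 0 to 1 in DNMT1-AID and the compound line against WT at day 4, in UHRF1-AID and WT over day 0 and in the compound line at day 0, and to 1 to 2 in DNMT1-AID and compound cells over day 0. RLE scaling moved the median of all genes by at most 0.0239 (log2). Most genes of the list stand at under 20 counts per library, where absence and a low level cannot be told apart.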
